A study of Mus musculus with 24 samples.

Results

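The genes described are 10 that mark scar formation in the liver and the cells that make it: the fibrillar collagen chains Col1a1, Col1a2 and Col3a1, the actin Acta2 and the filament protein Des, the growth factor Tgfb1, the platelet-derived growth factor receptor Pdgfrb, the collagen crosslinking enzyme Lox, and the protease inhibitors Timp1 and Timp2. They were chosen by name and not by their values. They make up 10 of the 18194 genes that the array annotation names alone on a probe set, and they have 26 of the 45101 probe sets. Of these 26, 20 passed the filter on low signals, and all 10 genes kept at least 1. The filter used the third-highest signal in whichever tissue was brighter, so that a gene bright in the gut stayed in even where it was dim in the liver. Each gene is represented by its kept probe set with the highest mean log2 signal, and values of the other kept probe sets in liver follow beside it.

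Male mice, 7 weeks old, of the inbred strains C57BL/6 (B6) and DBA/2 (D2) were either wild-type or lacked Hfe, the gene mutated in the commonest human hemochromatosis. There were 3 mice in each of the 4 strain and genotype groups, and liver and duodenum RNA was measured on 24 arrays, 1 for each mouse and tissue. All mice, controls included, had the same diet and were fasted before they were killed. The Hfe-/- mice were bred by the investigators and the wild-type mice were bought from a breeder, so that genotype and origin cannot be told apart. The 3 samples of a group are different mice, and the Hfe loss was present in the whole animal. Hfe-/- mice of both strains load iron in the liver, the D2 strain more than the B6 strain, and the comparisons ask whether matrix genes differed along with it at this age.

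Hepatic stellate cells store vitamin A in the healthy liver. When the liver is injured they lose these stores, turn into contractile cells that express Acta2, and lay down type I and type III collagen. TGF-beta 1, the product of Tgfb1, is the main signal that drives collagen production, platelet-derived growth factor acting on Pdgfrb makes the cells divide, Lox crosslinks the deposited fibers, and Timp1 and Timp2 slow their removal. Hepatic fibrosis is a late complication of iron overload in people. In the gut wall the same genes are expressed by smooth muscle, fibroblasts and pericytes.

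The arrays had been scaled to a trimmed mean signal of 100, and their median signal was 15.8 to 21.0 in liver and 20.1 to 23.4 in duodenum. In liver 4 of the 10 genes had a third-highest signal no higher than the highest of these medians, namely 19.4 for Col1a1, 16.1 for Timp1, 13.7 for Lox and 10.8 for Des, and their differences are poorly measured. Hfe itself, the check on the labels, had signals of 434 to 691 on the 6 wild-type liver arrays and of 70.5 to 98.8 on the 6 Hfe-/- liver arrays. Hepatocyte markers were higher in liver than in duodenum for 9 of 9 genes measured. The RNA came from whole tissue, so fewer cells of a type and less RNA per cell cannot be told apart.

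The start-site region of 2 collagen genes is shown because Col1a2 is the member whose Hfe-/- and wild-type livers separated in both strains, and because Col3a1, its fibrillar relative, was not separated in either. RefSeq start-site sequences of GRCm38.p6, covering 250 bases before and 50 after the start, matched 7 of the 10 genes. The Col1a2 region is chr6:4505368-4505667 on the + strand and the Col3a1 region is chr1:45311288-45311587 on the + strand. Capitals mark 4 motifs searched on both strands. They are the CCAAT box (CCAAT, which reads ATTGG when it lies on the other strand), the GC box (GGGCGG), the Smad-binding letters through which TGF-beta signals act (CAGAC, or GTCTG on the other strand) and the TATA box (TATAAA). None of these matches overlapped another.
Col1a2: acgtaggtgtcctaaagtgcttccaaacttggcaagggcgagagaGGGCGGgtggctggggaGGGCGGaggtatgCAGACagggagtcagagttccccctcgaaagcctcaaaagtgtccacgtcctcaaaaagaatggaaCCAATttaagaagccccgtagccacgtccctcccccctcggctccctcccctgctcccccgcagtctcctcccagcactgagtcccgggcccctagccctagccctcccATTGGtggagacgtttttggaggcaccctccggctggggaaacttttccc
Col3a1: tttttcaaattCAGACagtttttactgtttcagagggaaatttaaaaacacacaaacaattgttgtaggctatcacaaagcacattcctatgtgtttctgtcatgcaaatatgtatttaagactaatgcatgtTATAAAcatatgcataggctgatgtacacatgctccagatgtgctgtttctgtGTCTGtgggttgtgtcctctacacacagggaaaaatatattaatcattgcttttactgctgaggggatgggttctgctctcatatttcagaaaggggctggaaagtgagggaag
The Col1a2 region held 2 CCAAT boxes, 2 GC boxes and 1 Smad-binding match, and the Col3a1 region held 1 TATA box and 2 Smad-binding matches. The TATA letters of Col3a1 began 117 bases before the start site. The CCAAT letters of Col1a2 began 109 bases before it and, on the other strand, at the start site itself. Among all 32851 regions of this length, the CCAAT box was found in 37.4%, the GC box in 35.7%, the Smad-binding letters in 49.6% and the TATA box in 13.6%. Of the 7 members, 3 held the CCAAT box, 5 the GC box, 4 the Smad-binding letters and 1 the TATA box. Neither the AP-1 letters TGANTCA, held by 7.81% of all regions, nor the strict CArG box, held by 1.63%, were found in the 7. The strict CArG box has only A or T between CC and GG, and looser forms of it were not searched. A match describes the letters and is not a site shown to be bound.

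None of the 10 members passed the test in the liver of Hfe-/- mice of either strain. In D2 liver 0 of 10 had a Benjamini-Hochberg adjusted p of 0.1 or less (limma, adjusted over all kept probe sets), where 3.3% of the 12999 genes tested were called. In B6 liver 0 of 10 were called, against 1.12% of all genes. With shares this small, a count of 0 among 10 genes is near the background in both strains. At an unadjusted p under 0.05 there was 1 member in D2 liver, lower, and 3 in B6 liver, 1 higher and 2 lower, where 15% and 12.6% of all genes lay. The median log2 fold change of the 10 was -0.10 in D2 and -0.20 in B6.

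**Figure D1:**
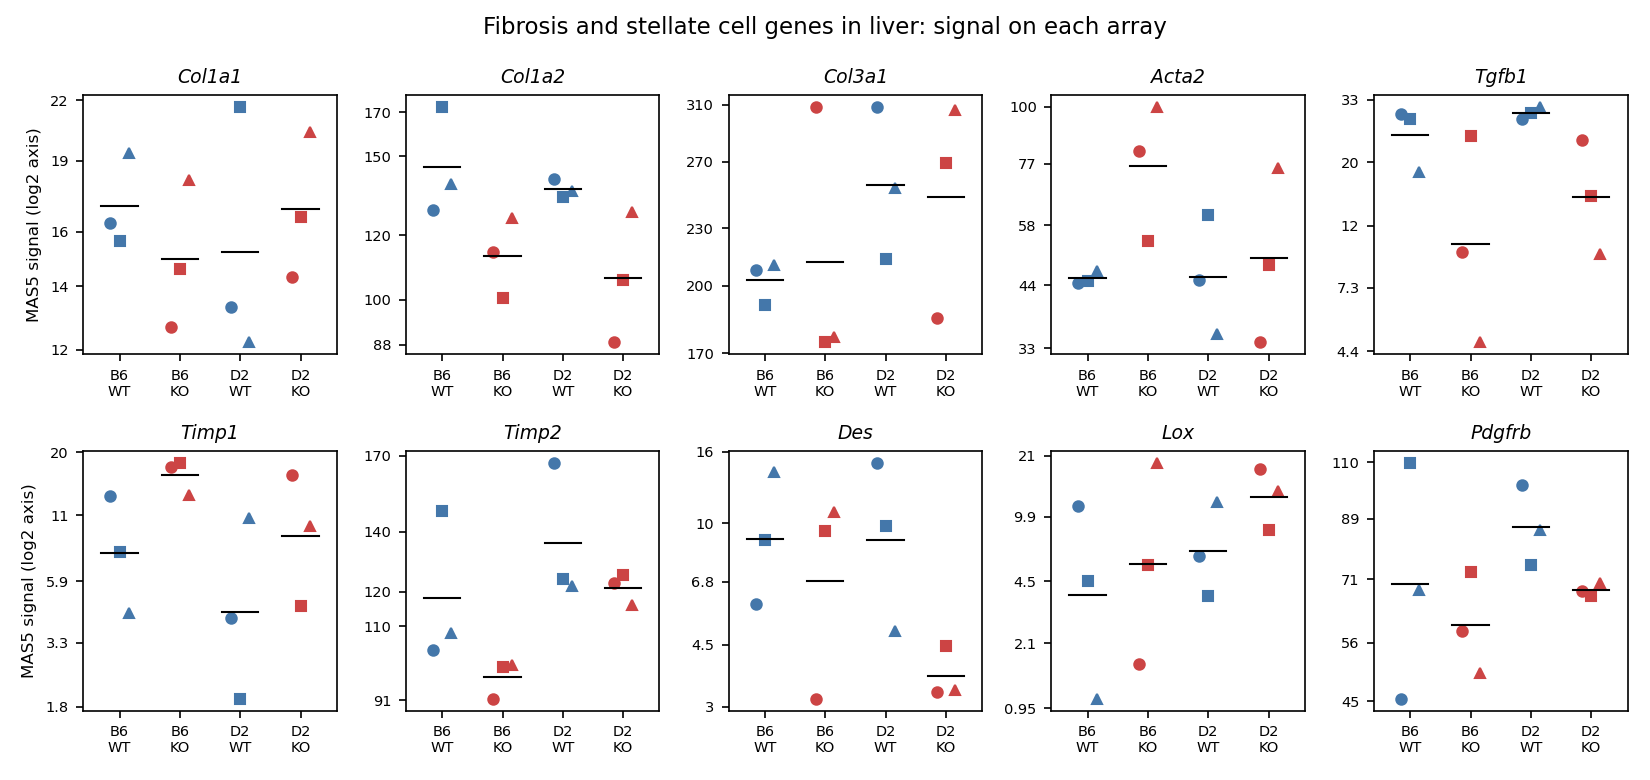
MAS5 signal of the 10 fibrosis and stellate cell genes on each liver array (log2 axis, a separate scale for each gene). Circles, squares and triangles are replicates 1, 2 and 3 of the 4 strain and genotype groups, blue wild-type (WT) and red Hfe-/- (KO), and lines are geometric means. Only for Col1a2 do all 6 Hfe-/- arrays lie below all 6 wild-type arrays.

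The type I collagen chain Col1a2 was the member with the most regular difference, and it was lower in the Hfe-/- livers. In D2 mice its signal was 88.55, 106 and 128 in Hfe-/- livers and 141, 134 and 136 in wild-type livers. In B6 mice it was 115, 100.4 and 126 in Hfe-/- livers and 129, 173 and 139 in wild-type livers. The 6 Hfe-/- arrays reached at most 128 and the 6 wild-type arrays were at least 129, so the genotypes did not overlap within or between strains, although the closest arrays of the 2 genotypes were next to each other. Genes with all 6 Hfe-/- livers below all 6 wild-type livers made up 0.5% of all genes tested. The log2 fold change was -0.36 in D2 (SE 0.16, limma adjusted p = 0.33) and -0.36 in B6 (SE 0.16, adjusted p = 0.387). Between Hfe-/- and wild-type arrays of the same hybridization run and fluidics station, it was -0.36 in D2 (3 arrays against 1) and -0.35 in B6 (1 against 3).

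The mean of the 2 strains' effects in liver, a contrast added after these values had been seen, gave Col1a2 a log2 fold change of -0.36 (SE 0.11, unadjusted p = 0.00534, limma adjusted p = 0.119), which did not pass the threshold that 4.49% of all genes passed. Leaving out D2 Hfe-/- replicate 3, the highest Hfe-/- array, made it -0.43 with an adjusted p of 0.0868 (limma). With the hybridization run as a block it was -0.32 (SE 0.16, limma adjusted p = 0.531). The second kept Col1a2 probe set was dimmer. It read 25.7, 21.7 and 16.8 in B6 Hfe-/- livers against 32.0, 37.6 and 31.7 in B6 wild-type livers, which did not overlap. In D2 the same probe set read 19.6, 34.6 and 36.2 against 30.6, 22.3 and 19.5, so that the separation by genotype was not seen there, and its log2 fold change was 0.29 in D2 and -0.67 in B6 (SE 0.34).

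Col1a1 and Col3a1, which encode the partner chain of type I collagen and the type III chain, were not separated by genotype on their representative probe sets. Col3a1 signals were 185, 269 and 306 in D2 Hfe-/- livers, 308, 213 and 254 in D2 wild-type livers, 308, 174 and 177 in B6 Hfe-/- livers, and 208, 191 and 210 in B6 wild-type livers. The genotypes overlapped in both strains, and the highest arrays, at 306 to 308, were 2 Hfe-/- arrays and 1 wild-type array. The log2 fold change was -0.04 in D2 (95% interval -0.50 to 0.42) and 0.06 in B6 (-0.40 to 0.52). The log2 fold changes of Col1a1, 0.15 in D2 and -0.19 in B6, had standard errors of 0.41, on signals of 12.2 to 21.7 over the 12 liver arrays. Their other kept probe sets differed from these. The other Col1a1 probe set was -1.08 in D2 and -0.55 in B6 (SE 0.92, limma adjusted p = 0.68 and 0.884). The other Col3a1 probe set was 0.58 in D2 and -0.90 in B6 (SE 0.72, limma adjusted p = 0.797 and 0.691).

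Acta2, the smooth muscle actin that marks activated stellate cells, differed by strain in its values and not by test. In B6 mice the signal was 81.5, 54.0 and 99.97 in Hfe-/- livers and 44.6, 44.8 and 47.0 in wild-type livers, so that all 3 Hfe-/- arrays were above all 3 wild-type arrays. In D2 mice it was 33.9, 48.3 and 75.6 in Hfe-/- livers and 45.1, 60.7 and 35.2 in wild-type livers, with the lowest and the highest array both Hfe-/-. The log2 fold change was 0.74 in B6 (SE 0.31, unadjusted p = 0.0287, limma adjusted p = 0.368) and 0.12 in D2 (SE 0.31, adjusted p = 0.918). The difference between the strains was -0.62 (D2 minus B6, 95% interval -1.55 to 0.30, limma adjusted p = 0.693), and the same interaction test called 0 of the 10 members and 0.223% of all genes. The other kept Acta2 probe set read 3.63, 8.04 and 9.99 in D2 Hfe-/- livers and 0.388, 0.510 and 0.652 in D2 wild-type livers, all below the array medians, a log2 fold change of 3.71 in D2 (SE 1.21, limma adjusted p = 0.163) beside 0.34 in B6. Averaged over both Acta2 probe sets, the difference between the strains turned to 1.38 (SE 0.86, limma adjusted p = 0.662), so its direction depends on the probe set. Des, the stellate and muscle filament protein, had liver signals of 3.16 to 14.8, and its log2 fold changes of -1.29 in D2 and -0.40 in B6 had standard errors of 0.72.

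Tgfb1 had a single kept probe set, with low signals in liver. They were 23.8, 15.2 and 9.62 in D2 Hfe-/- livers against 28.2, 29.6 and 31.2 in D2 wild-type livers, and 9.73, 24.7 and 4.72 in B6 Hfe-/- livers against 29.5, 28.2 and 18.5 in B6 wild-type livers. The genotypes did not overlap in D2, and in B6 replicate 2 of the Hfe-/- mice lay among the wild-type arrays. The log2 fold change was -0.97 in D2 (SE 0.54, limma adjusted p = 0.479) and -1.26 in B6 (SE 0.54, unadjusted p = 0.0357, adjusted p = 0.387). Within one run and station it was -1.04 in D2 and -1.36 in B6. As the mean of both strains it was -1.11 (limma adjusted p = 0.17), and without B6 Hfe-/- replicate 2 it was -1.42 and passed (limma adjusted p = 0.0501).

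Timp1 and Timp2, the tissue inhibitors of metalloproteinases, had opposite signs. Timp1 read 17.3, 18.03 and 13.4 in B6 Hfe-/- livers against 13.2, 7.79 and 4.37 in B6 wild-type livers, and 16.1, 4.68 and 9.90 in D2 Hfe-/- livers against 4.15, 1.94 and 10.7 in D2 wild-type livers. The B6 genotypes were barely apart and the D2 genotypes overlapped. The log2 fold changes of 1.07 and 1.04 had standard errors of 0.74. In D2, Timp1 was -0.24 within one run and station, the opposite sign. Timp2 read 91.4, 99.0 and 99.6 in B6 Hfe-/- livers against 103.5, 147 and 108 in B6 wild-type livers, without overlap, and its log2 fold change was -0.29 in B6 (SE 0.16, limma adjusted p = 0.523) and -0.17 in D2 (SE 0.16, adjusted p = 0.726).

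Timp2 had 5 kept probe sets, and they did not all have the same direction. One of the others read 68.3, 47.3 and 63.1 in B6 Hfe-/- livers against 85.3, 84.4 and 82.3 in B6 wild-type livers. In D2 it read 72.8, 85.0 and 88.0 against 90.8, 117 and 121. It was lower without overlap in both strains, by -0.51 in B6 (SE 0.18, limma adjusted p = 0.271) and -0.41 in D2. Over both strains, in the contrast added after the values had been seen, it passed the threshold (-0.46, SE 0.13, limma adjusted p = 0.0811). It was the one probe set of any member to do so in liver, 1 of the 20 kept. In that contrast 4.49% of all genes passed, so a count of 1 in 20 is near the background. A further probe set had the lowest values, -1.58 in B6 (SE 0.69, unadjusted p = 0.0381, limma adjusted p = 0.392) and -1.30 in D2 (adjusted p = 0.45). The remaining 2 were -0.68 in B6 and 0.21 in D2, and 0.01 and 0.16. Thus 4 of 5 were negative in B6 and 3 of 5 in D2. The cause of the disagreement was not tested.

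Pdgfrb, the receptor through which platelet-derived growth factor acts on stellate cells, read 68.0, 66.7 and 70.0 in D2 Hfe-/- livers against 101, 75.0 and 85.2 in D2 wild-type livers, which did not overlap. In B6 it read 58.6, 73.0 and 49.99 against 45.5, 110 and 68.1, which did. The log2 fold change was -0.34 in D2 (SE 0.26, limma adjusted p = 0.636) and -0.22 in B6 (adjusted p = 0.814). The other kept Pdgfrb probe set was 0.03 in D2 and 1.18 in B6 (SE 0.66, limma adjusted p = 0.991 and 0.531), the opposite sign in B6. Lox signals ran from 1.07 to 19.2 over the liver arrays and its 2 kept probe sets differed in sign in D2 (0.97 and -2.11), so no direction can be read for it.

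Without regard to the test, the 3 Hfe-/- arrays lay wholly below the 3 wild-type arrays for 4 of 10 members in D2 liver (Col1a2, Tgfb1, Des and Pdgfrb) and wholly above for 0, where 8.58% and 10.7% of all genes did so. In B6 liver they lay below for 2 (Col1a2 and Timp2) and above for 2 (Acta2 and Timp1), where 9.36% and 8.96% of all genes did so. With 3 arrays on each side, the smallest two-sided p of an exact permutation test is 0.1.

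**Figure D2:**
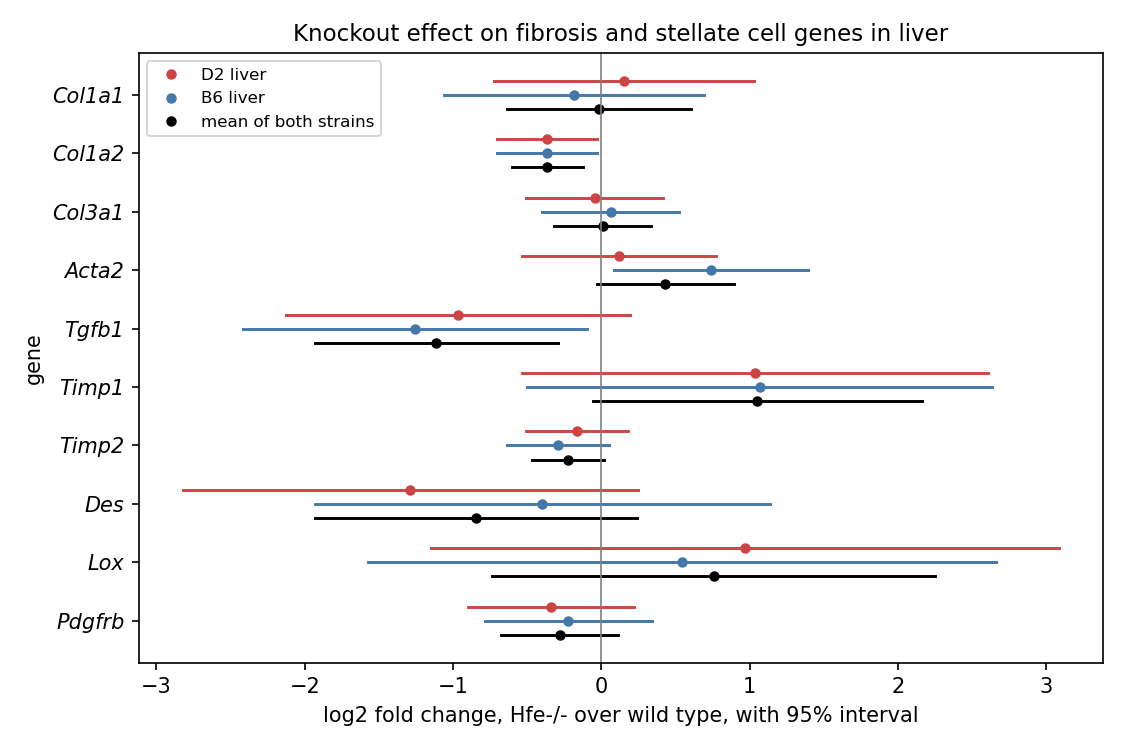
Log2 fold change of Hfe-/- over wild-type in liver with its 95% interval from the limma fit, for each of the 10 genes in D2 (red), B6 (blue) and as the mean of both strains (black). The intervals are narrow for Col1a2, Col3a1 and Timp2 and widest for Lox, and no gene passed the adjusted threshold in any of the 3.

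The lists that surround these genes gave few calls in liver, and most of those were lower. Over all genes 3.3% were called in D2 and 1.12% in B6, so a count of 0 or 1 in lists of this size is near the background. Of 14 other collagens measured, 0 were called in either strain, and 8 in D2 and 13 in B6 had a negative value, with medians of -0.11 and -0.27 beside 0.02 and -0.0024 over all genes. Of 18 matrix glycoproteins and proteoglycans 0 were called in D2 and 1 fell in B6, of 19 TGF-beta pathway genes 0 in either strain, and of 21 stellate cell and pericyte markers 1 fell in D2 and 0 in B6. Collagen processing enzymes (0 of 13) and matrix proteases and inhibitors (0 of 11) had no call in either strain, nor had 17 smooth muscle genes.

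Pdgfra, the receptor for platelet-derived growth factor A on fibroblasts and stellate cells, fell in both strains. Its signal was 82.7, 59.4 and 61.2 in D2 Hfe-/- livers against 107, 103 and 109 in D2 wild-type livers, and 41.1, 52.9 and 42.4 in B6 Hfe-/- livers against 73.9, 87.8 and 76.6 in B6 wild-type livers. Neither strain overlapped. The log2 fold change was -0.66 in D2 (SE 0.18, limma adjusted p = 0.094) and -0.81 in B6 (SE 0.18, adjusted p = 0.0729). With the run as a block the values were -0.70 and -0.92, and the adjusted p rose to 0.514 and 0.246 (limma). Averaged over all its kept probe sets, Pdgfra was -0.03 in D2 (SE 0.34, limma adjusted p = 0.988) and -0.84 in B6 (SE 0.34, adjusted p = 0.367), so the fall in D2 rests on the representative probe set. Of the 5 PDGF pathway genes measured, Pdgfra alone was called in each strain. Over all genes 3.3% were called in D2 and 1.12% in B6. In D2 1 of the 5 was higher, by 0.66, without overlap and with an unadjusted p under 0.05 (limma), but was not called. In B6 2 of the 5 were positive.

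Dcn, the collagen-binding proteoglycan decorin, fell in B6 liver. It read 1907, 1858 and 1617 in Hfe-/- livers against 2043, 2794 and 2550 in wild-type livers, a log2 fold change of -0.45 (SE 0.11, limma adjusted p = 0.0934). In D2 it read 2006, 2071 and 2096 against 2584, 2444 and 2336, also without overlap (-0.25, SE 0.11, adjusted p = 0.317). These calls are close to the threshold. Of 23 alternatives run, 18 ended the call of Dcn in B6, with an adjusted p of up to 0.638 (limma), and 15 and 16 ended those of Pdgfra in B6 and D2. Leaving out B6 wild-type replicate 2 alone made Dcn -0.35 (adjusted p = 0.371) and Pdgfra -0.74 (adjusted p = 0.298) in B6.

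Nt5e, the ecto-5'-nucleotidase CD73, which is used as a stellate cell marker and is also made by other liver cells, had the largest change among the genes called in these lists. In D2 it read 288, 89.8 and 129 in Hfe-/- livers against 703, 610 and 583 in wild-type livers, a log2 fold change of -2.08 (SE 0.30, limma adjusted p = 0.00379). In B6 it read 53.9, 48.4 and 63.9 against 83.0, 109 and 70.8 (-0.65, adjusted p = 0.429). Wild-type D2 livers were above wild-type B6 livers by 2.87 (SE 0.30, limma adjusted p = 1.74e-05), and the lowest D2 Hfe-/- array, at 89.8, lay in the range of the B6 wild-type arrays. With the run as a block the D2 change was -1.96 (limma adjusted p = 0.181), which no longer passed.

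**Figure D3:**
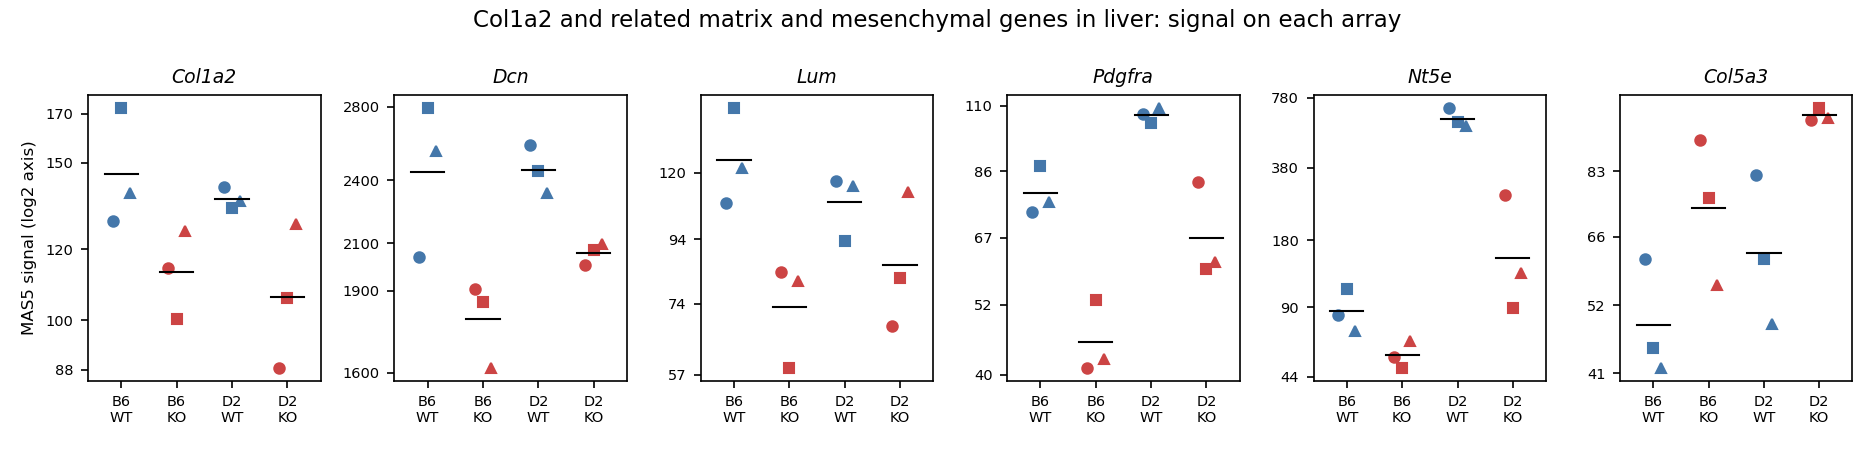
MAS5 signal of Col1a2 and of 5 related genes on each liver array (log2 axis, a separate scale for each gene), with symbols, colors and lines by replicate, genotype and geometric mean. The Hfe-/- arrays lie below the wild-type arrays of their strain for Col1a2, Dcn, Pdgfra and Nt5e, and the D2 Hfe-/- arrays lie above for Col5a3.

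Over both strains, in the contrast added after the values had been seen, 4 of the 18 matrix glycoproteins and proteoglycans fell, where 2.38% of all genes were called lower and 4.49% in either direction: Dcn (-0.35, limma adjusted p = 0.0297), the keratan sulfate proteoglycan Lum (-0.56, adjusted p = 0.0678), the extracellular matrix protein Ecm1 (-0.38, adjusted p = 0.0506) and the basement membrane protein Nid1 (-0.47, adjusted p = 0.0994). One collagen chain, Col5a3, rose (0.64, SE 0.17, adjusted p = 0.0647), from 81.8, 61.2 and 48.7 to 99.4, 103.5 and 99.98 in D2 liver. In B6 it read 92.6, 75.6 and 55.8 in Hfe-/- livers against 61.2, 44.8 and 41.8 in wild-type livers, which overlapped. The other 13 collagens were not called. With the run as a block the adjusted p of Dcn was 0.347 and that of Col5a3 0.0605 (limma). Of the alternatives run, 3 of 22 ended the call of Dcn and 11 of 21 that of Col5a3, so Dcn held more often. Of 2 stellate markers named for their role after their values were seen, the reelin gene Reln was 0.09 in D2 and -0.33 in B6, and Lrat, the enzyme that esterifies retinol for storage, was -0.16 and -0.22, none of them called.

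Markers of other cells also differed in their values on these liver arrays. All 10 Kupffer cell and macrophage markers measured were negative in B6 Hfe-/- liver (median -0.46, 0 called), and their summed signal was 2714 to 4429 there against 4038 to 5445 in B6 wild-type liver. In D2 liver 8 of 10 were negative (median -0.16, 0 called). Stellate and pericyte markers were negative for 18 of 21 in B6 (median -0.215) and for 13 of 21 in D2 (median -0.07). Their summed signal was 1861 to 1993 in B6 Hfe-/- livers against 1939 to 2415 in B6 wild-type livers, and 2265 to 2576 against 2831 to 3183 in D2. Nt5e is one of these markers, and in D2 it alone went from 703, 610 and 583 in wild-type livers to 288, 89.8 and 129 in Hfe-/- livers. The D2 sum therefore cannot be read as a fall of the list as a whole. Hepatocyte markers had medians of 0.09 in D2 and -0.13 in B6 (0 of 9 called in each). Of 10 sinusoidal endothelial markers 5 were negative in D2 (median 0.01) and 8 in B6 (median -0.22), with 0 called in each. Of 13 pancreatic acinar markers 1 was called in D2 liver, where 3.3% of all genes were, and 0 in B6. It was the elastase Cela1, which was higher (1.21, limma adjusted p = 0.00985) and lost its call with the run as a block. Of 2 red blood cell markers measured, Alas2, the erythroid enzyme of heme synthesis, rose in D2 Hfe-/- liver (1.19, SE 0.16, limma adjusted p = 0.00184) and was 0.25 in B6 (adjusted p = 0.588). The other, Slc4a1, had the opposite sign in D2 (-0.38) and was 1.34 in B6, and was called in neither strain. The summed signal of the 2 was 1595 to 2216 against 727 to 1046 in D2 wild-type liver, and 735 to 836 against 521 to 751 in B6. Of 8 enterocyte markers 0 were called in either strain, and their summed signal was 2610 to 2690 in B6 Hfe-/- livers against 3176 to 3527 in B6 wild-type livers, and 3299 to 4356 against 3971 to 4252 in D2. Enterocytes are gut cells, so these sums do not describe a liver cell type. Which genes carry them was not tested. The part of these cell markers in the values above was not tested.

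Between wild-type livers of the 2 strains, 0 of 10 members had an adjusted p of 0.01 or less (limma), where 5.04% of all genes were. Col3a1 was higher in D2 on all 3 arrays (213 to 308 against 191 to 210 in B6), a log2 difference of 0.33 (SE 0.22, limma adjusted p = 0.44), where 15.6% of all genes were higher in D2 without overlap. Apart from Nt5e, no gene of the collagen, matrix, TGF-beta, PDGF, stellate or smooth muscle lists was called.

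The duodenum has a muscular wall, and most of the 10 genes were brighter there. The liver was lower than the duodenum for 9 of the 10 members (limma, adjusted p of 0.01 or less), and 42.2% of all genes were called lower and 30.7% higher in this comparison. Because the median over all genes was itself -0.18, and because 72.9% of genes differed, the sizes say more than the count. The median of the 10 was -2.14 on the log2 scale. For 7 of the 10 the 12 liver arrays did not overlap the 12 duodenum arrays, lower in liver, as was so for 22.4% of all genes.

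**Figure D4:**
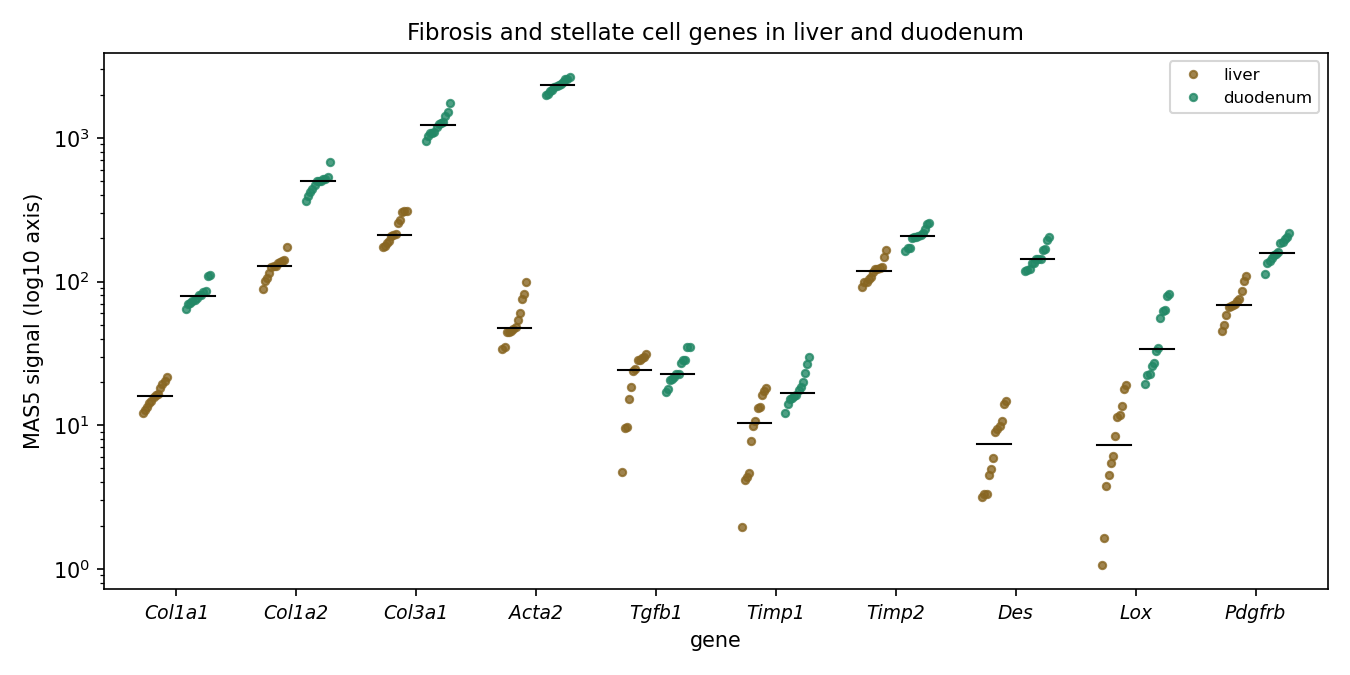
MAS5 signal (log10 axis) of the 10 genes on the 12 liver arrays (brown) and 12 duodenum arrays (green), with the median as a line. Acta2 and Des are furthest apart, and the tissues overlap for Tgfb1, Timp1 and Timp2.

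The muscle genes stood furthest apart. Acta2 ran from 33.9 to 99.97 in liver (median 47.6) and from 1999 to 2640 in duodenum (median 2319), a log2 difference of -5.44 (SE 0.12, limma adjusted p = 1.37e-20). Des ran from 3.16 to 14.8 (median 7.43) and from 118 to 205 (median 144), a difference of -4.46 (SE 0.21). Of 17 other smooth muscle and contractile genes 15 were called lower in liver and 1 higher, among them the regulatory myosin light chain Myl9 (-5.84), the creatine kinase Ckb (-5.43), the tropomyosin Tpm1 (-3.52) and the myosin light chain kinase Mylk (-2.60).

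The collagens differed by less. Col1a1 was 12.2 to 21.7 in liver and 63.9 to 111 in duodenum (-2.33, SE 0.12), Col1a2 88.55 to 173 and 365 to 684 (-1.95, SE 0.08), and Col3a1 174 to 308 and 953 to 1745 (-2.43, SE 0.11). None of the 3 overlapped between tissues. Of the 14 other collagens 10 were lower in liver, among them the type VI chains Col6a1 (-2.99), Col6a2 (-4.12) and Col6a3 (-2.21), and 3 were higher, among them Col18a1, the source of endostatin (3.83). Pdgfrb (-1.21, SE 0.11) and Lox (-2.58, SE 0.40) were also lower in liver without overlap, although Lox lost its call with the hybridization run as a block (-2.17, limma adjusted p = 0.174).

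Tgfb1 did not differ between the tissues by test, at 4.72 to 31.2 in liver and 16.9 to 35.2 in duodenum (-0.38, SE 0.23, limma adjusted p = 0.139). Timp1 was -1.11 (SE 0.28, adjusted p = 0.0012), but with the hybridization run as a block it was 0.04 (SE 0.77, adjusted p = 0.975), where the direction turned. The liver and duodenum arrays that shared a run were all D2 in liver and all B6 in duodenum. Tissue and strain therefore cannot be told apart within a run, which holds for the Lox value under that block too. Timp2 was -0.81 (SE 0.08), and the 2 tissues overlapped at their edges. By contrast 8 of 21 stellate and pericyte markers were higher in liver and 8 lower. Those higher included Reln (3.19) and the hepatocyte growth factor Hgf (2.32), and those lower included the pericyte marker Rgs5 (-2.27) and the transcription factor Tcf21 (-1.63).

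In the duodenum too, no member was called after loss of Hfe. In D2 duodenum 0 of 10 passed (limma, adjusted p of 0.1 or less), where 0.485% of all genes did, and in B6 duodenum 0 of 10, where 0.00769% did. The interaction called 0 of 10 and 0.0154% of all genes. On the representative probe sets, there was 1 member with an unadjusted p under 0.05 in D2, Des, and 0 in B6, where 12.6% and 5.42% of all genes lay.

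**Figure D5:**
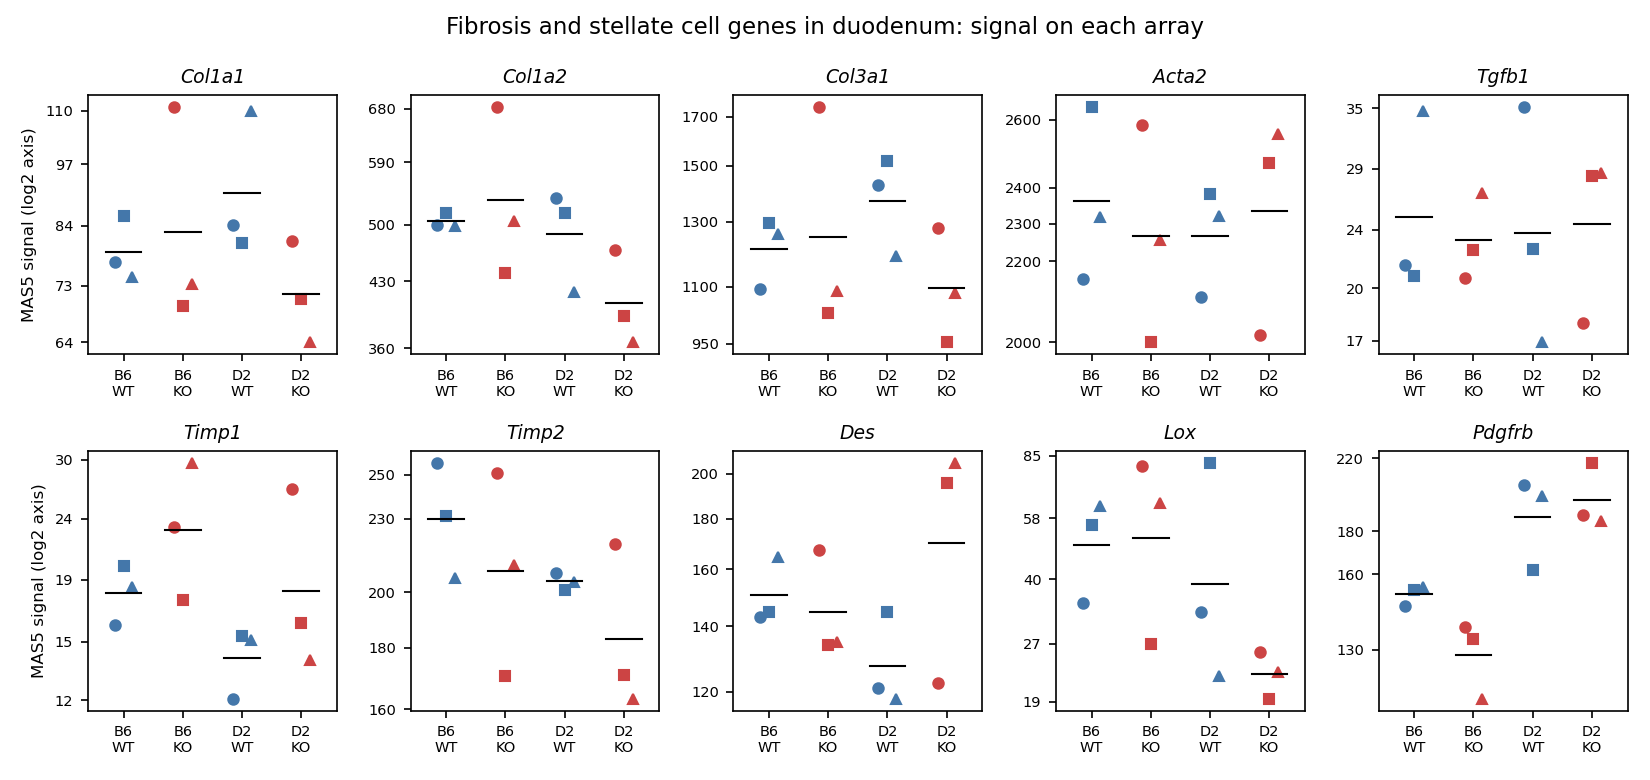
MAS5 signal of the 10 genes on each duodenum array (log2 axis, a separate scale for each gene), with symbols, colors and lines by replicate, genotype and geometric mean. Col1a1, Col1a2 and Col3a1 are highest on the same array, B6 Hfe-/- replicate 1, and Pdgfrb is higher on all 6 D2 arrays than on any B6 array.

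The 3 collagens were highest on the same duodenum array. On B6 Hfe-/- replicate 1 they read 111, 684 and 1745 for Col1a1, Col1a2 and Col3a1, the highest value of each, while the other 2 arrays of that group read 69.6 and 73.4, 440 and 505, and 1029 and 1087. In D2 the Hfe-/- arrays read 81.1, 70.8 and 63.9 for Col1a1 against 84.2, 80.8 and 110 in wild-type, 467, 392 and 365 for Col1a2 against 537, 515 and 418, and 1280, 953 and 1083 for Col3a1 against 1429, 1520 and 1189. On these representative probe sets the genotypes overlapped for each of the 3, and the log2 fold changes in D2 were -0.34, -0.26 and -0.32 (limma adjusted p = 0.513, 0.529 and 0.512). Between arrays of the same run and station in D2, 3 against 1, Col1a1 was -0.62, Col1a2 -0.04 and Col3a1 -0.12. The other kept probe sets were also negative in D2. That of Col1a1 was -0.88 (SE 0.31, unadjusted p = 0.0151, limma adjusted p = 0.301). That of Col1a2 was -0.42 (SE 0.16, unadjusted p = 0.0196, limma adjusted p = 0.322), without overlap of the genotypes. That of Col3a1 was -0.15 (limma adjusted p = 0.875).

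Des was the one member whose representative probe set had an unadjusted p under 0.05 in the duodenum after loss of Hfe. Its D2 signals were 122, 196 and 205 in Hfe-/- mice against 121, 145 and 118 in wild-type mice, a log2 fold change of 0.42 (SE 0.18, limma adjusted p = 0.392). Replicates 2 and 3 of the Hfe-/- mice were high and replicate 1 was not. The same 2 arrays had the lowest summed signal of pancreatic acinar markers, 10340 and 11290 against 21530 to 120500 on the other 10 duodenum arrays. With the acinar level as a covariate Des was 0.09 (SE 0.13, limma adjusted p = 0.88). Both low arrays were D2 Hfe-/-, so acinar level and genotype cannot be fully told apart, and the cause was not tested. Without replicate 1, Des was 0.65 and passed the test (SE 0.14, limma adjusted p = 0.049), and without replicates 2 and 3 it was -0.06 (SE 0.19). 

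Pdgfrb was separated by strain in duodenum. It read 204, 162 and 198 in D2 wild-type mice, 188, 217 and 185 in D2 Hfe-/- mice, 147, 153 and 154 in B6 wild-type mice and 138, 134 and 114 in B6 Hfe-/- mice. The 6 D2 arrays, at 162 to 217, all lay above the 6 B6 arrays, at 114 to 154, as was so for 3.52% of all genes. B6 Hfe-/- replicates 2 and 3, at 134 and 114, were hybridized in the same run as the 6 D2 arrays. Between wild-type mice the log2 difference was 0.31 (D2 minus B6, SE 0.12, unadjusted p = 0.0273, limma adjusted p = 0.198), and with the hybridization run as a block 0.47 (SE 0.22, adjusted p = 0.537), since the wild-type arrays of the 2 strains were hybridized in different runs. In B6 duodenum Pdgfrb was lower on all 3 Hfe-/- arrays than on the wild-type arrays, as were 6.47% of all genes (-0.24, SE 0.12, unadjusted p = 0.0723, limma adjusted p = 0.874). The other kept Pdgfrb probe set had the opposite sign there (0.45, SE 0.39, limma adjusted p = 0.908). Between wild-type mice that probe set was 1.10 (SE 0.39, limma adjusted p = 0.138), also higher in D2.

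Between wild-type duodena of the 2 strains 0 of 10 members and 3.32% of all genes were called (limma). Matrix genes outside the 10 did differ, and 3 of the 18 glycoproteins and proteoglycans were lower in D2. Fbln1, the matrix glycoprotein fibulin 1, read 146, 187 and 210 in D2 wild-type mice and 614, 443 and 530 in B6 wild-type mice (-1.55, SE 0.18, limma adjusted p = 0.00011). Efemp1, a fibulin relative, was -0.68 (adjusted p = 0.00461) and Ecm1 -0.60 (adjusted p = 0.00361). The wild-type arrays of the 2 strains were hybridized in different runs, so strain and run cannot be told apart among them. With the hybridization run as a block all 3 lost their call. Of 25 alternatives, 2 ended the call of Fbln1, 11 that of Efemp1 and 10 that of Ecm1. The Hfe-/- arrays of each strain lay near their own wild-type arrays for Fbln1, at 135 to 208 in D2 and 501 to 578 in B6. Of these, B6 Hfe-/- replicates 2 and 3, at 578 and 561, were hybridized in the same run as the D2 arrays.

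As a description, the genes whose liver signal followed the mean of the 3 collagens most closely over the 12 arrays, after the mean of each group was taken off and with the 10 members themselves left out, were Ehbp1l1, Hps4, Rpn2, Gcn1, Rnf111, Gnai2, Slc19a2, Serpinb6e, Col6a3 and Rab3d. Over the 12 duodenum arrays they were Ifna2, Mark1, Tmem106c, Olfml3, Mrgprf, Nepro, Ccn4, Tmx4, A630072M18Rik and Pcolce, of which Pcolce encodes the enhancer of procollagen processing and Ccn4 a matricellular protein. Both sets are the highest of the other genes tested, over few arrays, which share scaling and tissue dissection, and no test was made.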

How the data were processed

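Liver and duodenum RNA of 12 male mice was hybridized to 24 Affymetrix whole-genome mouse arrays. The deposited values are MAS5 signal intensities for 45101 probe sets on a linear scale, which the authors computed for each array. Per the study's methods every array was scaled to one target mean of 100, and the trimmed mean (2% off each end) is 100 on each. The MAS5 version is not given in the sources used here. Such scaling sets totals equal and makes values relative to the other genes of an array, and low signals vary most on the log scale. The array annotation names 1 gene for 34958 probe sets, several for 932 and none for 9211. No column lacked a sample, and the authors' own comparisons were not used.

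Signals were log2-transformed with no pseudocount. The authors filtered probe sets by detection calls. Here as many as they kept were taken in order of their third-highest signal in either tissue, the lowest being 20.06. The 12 arrays of a tissue were fitted together with limma 3.58.1 (R 4.3.3, lmFit and eBayes with a trend, Benjamini-Hochberg), and all 24 for the tissue difference. The thresholds were an adjusted p of 0.1 for knockout effects and interactions and 0.01 for strain and tissue. S-scores need probe-level data, so limma took the place of the study's own test. The scripts were tested on simulated data. A gene's value comes from its brightest kept probe set. All 10 members were named, with up to 4 genes of each related list by smallest adjusted p, any other being marked as named for its role, and the 10 genes most like the collagens. Members, lists and tests were chosen with earlier results of these data known. Replicates are mice, and 3 in a group limit the precision. The arrays were grouped here into 5 hybridization runs by a gap of 30 minutes between them. These runs partly go with strain and genotype, so the run was tried as a block. The other alternatives changed the log scale, normalization, filter, variance model, threshold, probe sets and the arrays included. Same-numbered arrays correlated at -0.021 to 0.051 in liver and -0.204 to 0.117 in duodenum after group means were removed, so replicate numbers were not taken as pairs. Promoter regions come from RefSeq (GRCm38.p6).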

Additional observations from a re-analysis of the deposited data

How the results depend on the processing

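No member was called in the liver of either strain, in the liver interaction, between wild-type livers, in B6 duodenum, in the duodenum interaction or between wild-type duodena under any of the 23 to 26 alternatives run for each. In D2 duodenum the count ran from 0 to 1 when single arrays were left out, the 1 being Des without D2 Hfe-/- replicate 1. Over both liver strains it ran from 0 to 1, the 1 being Tgfb1 without B6 Hfe-/- replicate 2 or Col1a2 without D2 Hfe-/- replicate 3. With only probe sets whose third-highest signal was at least 100 it was 1, Col1a2 at an adjusted p of 0.0826 (limma), where fewer probe sets were tested. The tissue count ran from 6 to 9 over 35 alternatives and was 9 when any single array was left out. Timp1 turned to 0.0401 between tissues with the hybridization run as a block, and the cause was not tested. Liver and duodenum arrays that shared a run also differed in strain.

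With the replicate number as a block, 0 members were called in each liver and duodenum comparison and 9 between tissues. The numbers only name the mice. Under that block Pdgfra in liver lost its call in D2 (adjusted p = 0.127) and B6 (0.102), and Dcn in B6 (0.121). The acinar covariate was not run for the tissue difference, nor the fit to only the arrays compared for the interactions. Probe sets called over the whole array ranged widely, from 66 to 1739 in D2 liver (378 higher and 394 lower as reported) and from 26 to 428 in B6 liver (151 higher and 133 lower as reported). With 3 mice a group and liver signals near or below the array medians, small changes of Col1a1, Timp1, Des and Lox were not detectable here.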
